A study of Homo sapiens with 54 samples.

Results

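The 45 genes described here encode parts of the machinery that makes ribosomes and trims nuclear RNA: ribosomal RNA processing and assembly factors, proteins of small nucleolar ribonucleoproteins (snoRNPs), subunits of the RNA exosome and of RNA polymerase I. They were chosen by function with earlier results of these data known, and were taken by symbol from the gene table of a colorectal cancer study. All 45 of 45 were found there among 59368 genes in 54 libraries. Poly(A) RNA was measured in 3 colorectal adenocarcinoma lines named HT-29, HCT-116 and DLD-1. Each line was used as the original 5-fluorouracil (5-FU) sensitive cells and as a resistant derivative that had been grown in rising amounts of 5-FU and kept in 5-FU medium. Cells of each kind received for 24 h either uracil at 10 µM, which served as the control, or 5-FU at the same 10 µM, the latter alone or combined with irradiation, which gives 18 conditions with 3 libraries each. DLD-1 and HCT-116 are microsatellite-unstable lines. The comparisons ask how the transcripts of the ribosome factory responded to 5-FU, a uracil analogue that enters RNA, in cells that differ in sensitivity to it.

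Ribosome production starts in the nucleolus, where RNA polymerase I copies the ribosomal DNA into a long precursor RNA. Box C/D snoRNPs methylate that precursor, box H/ACA snoRNPs convert chosen uridines to pseudouridine, and many assembly factors fold and cut it into the RNAs of the small and the large subunit. The nuclear exosome, a ring of non-catalytic subunits with the nucleases EXOSC10 and DIS3, trims the ends of precursors and destroys by-products. 5-FU is long known to disturb ribosomal RNA maturation, and several enzymes of the pathway are inhibited by RNA that holds fluorouridine.

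The libraries held between 38957142 and 218518344 estimated counts, with a median of 51373543, and every one of the 45 genes passed the filter on low counts in every line. The smallest count of any of the 45 genes in any library was 93, in PWP2. Epithelial marker genes were present in all conditions, 5 of 5 at 1 TPM or more (TPM, transcript abundance corrected for length and depth). Intestinal markers were not, since of 6 only CDX2 reached 1 TPM in the HCT-116 and the resistant-labelled HT-29 conditions. In sensitive HT-29 conditions 3 of the 6 did so, without CDX2, in sensitive DLD-1 conditions 5 and in resistant DLD-1 conditions 4. The blood cell marker PTPRC, the fibroblast marker COL1A2 and the liver marker ALB stayed below 1 TPM. Of 6 markers of other cell types at most 3 reached 1 TPM in a condition. The other fibroblast marker, COL1A1, did so in 15 of the 18 conditions, highest at 28.8 TPM in sensitive HCT-116 cells given 5-FU. The endothelial marker PECAM1 did so in 7, among them sensitive HT-29 and HCT-116 cells given 5-FU with or without irradiation. The smooth muscle marker MYH11 did so in 1, the resistant-labelled HT-29 libraries given 5-FU. Their summed TPM in sensitive HT-29 cells was 1.11 to 2.01 with uracil and 5.69 to 6.48 with 5-FU, in sensitive HCT-116 cells 20.9 to 25.9 and 28.3 to 33.2, and in sensitive DLD-1 cells 1.07 to 2.35 and 2.42 to 3.03, and their part in the results was not tested. A set of libraries went against its label. The 9 libraries labelled as resistant HT-29 had 62 of 64 genes that mark HCT-116 at 1 TPM or more, and 0 of the 12 genes that mark HT-29. A marker of a line was a gene at 10 TPM or more in its sensitive cells and at most 0.1 TPM in those of the other two lines. These 9 are called the resistant-labelled HT-29 libraries, and a comparison of them with sensitive HT-29 cells cannot tell resistance from a difference between lines. The DLD-1 resistant uracil libraries also differed among themselves, since the summed TPM of the 45 genes was 9128 in the first library, 10885 in the second and 10570 in the third. Because these are bulk samples, less RNA of a gene per cell and fewer cells that make it cannot be told apart.

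The levels of the 45 genes differed widely. Averaged over the 18 conditions, the histone chaperone and ribosome shuttle NPM1 (nucleophosmin) stood first at 3363 TPM, ahead of NCL (nucleolin) at 1285 TPM and the methyltransferase FBL (fibrillarin) at 466 TPM. The polymerase subunit POLR1A, at 27.6 TPM, and the small subunit scaffold UTP20, at 13.7 TPM, came last. NPM1 and NCL together made up between 37.7% and 59.3% of the summed TPM in the conditions. The mean TPM in the highest condition was at least 1.41 times that in the lowest for each gene, the smallest range being that of the nuclease DIS3, and 31 of the 45 genes had their lowest mean in sensitive HT-29 cells given 5-FU, with or without irradiation.

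Gene promoters are shown here because many of these genes moved together. The hexamer CACGTG, an E-box which is its own reverse complement and which MYC with its partner MAX is known to bind, was searched on both strands from 250 bases before to 50 bases after each RefSeq start (GRCh38.p14). Of the 45 genes, 38 had a window, and 14 of these held CACGTG in at least 1 window (36.8%), against 2375 of 27167 genes with a window (8.74%). Of the 16 matches in these windows, 13 lay within 50 bases of the start. The looser CANNTG, which includes CACGTG, was in 71.1% of the members' windows and 68.7% of all windows. The median share of G and C bases was 62% in the members' windows and 58.7% in all windows. The set of all genes was not matched to the 45 genes in this share or in expression. The 4 windows printed belong to genes of 3 roles whose HT-29 values are given further on, and capitals mark CACGTG. They are FBL on the minus strand at chr19:39846330-39846629, RRP9 on the minus strand at chr3:51941855-51942154, UTP20 on the plus strand at chr12:101279855-101280154 and PES1 on the minus strand at chr22:30591861-30592160.
FBL: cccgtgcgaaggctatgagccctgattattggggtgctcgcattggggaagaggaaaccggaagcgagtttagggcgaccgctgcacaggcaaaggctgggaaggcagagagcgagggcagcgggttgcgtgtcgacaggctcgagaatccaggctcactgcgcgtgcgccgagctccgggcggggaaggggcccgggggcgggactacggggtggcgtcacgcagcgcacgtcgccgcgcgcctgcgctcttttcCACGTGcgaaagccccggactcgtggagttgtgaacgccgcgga
RRP9: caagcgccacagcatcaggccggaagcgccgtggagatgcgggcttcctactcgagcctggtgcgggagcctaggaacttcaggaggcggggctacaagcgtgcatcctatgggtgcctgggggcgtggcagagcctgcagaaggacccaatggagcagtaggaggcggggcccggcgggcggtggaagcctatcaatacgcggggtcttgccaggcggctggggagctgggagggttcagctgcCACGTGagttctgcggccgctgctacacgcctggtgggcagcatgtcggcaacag
UTP20: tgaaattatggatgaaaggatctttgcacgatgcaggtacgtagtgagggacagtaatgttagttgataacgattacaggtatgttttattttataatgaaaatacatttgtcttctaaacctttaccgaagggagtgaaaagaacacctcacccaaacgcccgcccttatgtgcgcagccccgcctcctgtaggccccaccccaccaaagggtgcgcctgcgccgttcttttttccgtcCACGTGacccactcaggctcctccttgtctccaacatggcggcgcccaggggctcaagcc
PES1: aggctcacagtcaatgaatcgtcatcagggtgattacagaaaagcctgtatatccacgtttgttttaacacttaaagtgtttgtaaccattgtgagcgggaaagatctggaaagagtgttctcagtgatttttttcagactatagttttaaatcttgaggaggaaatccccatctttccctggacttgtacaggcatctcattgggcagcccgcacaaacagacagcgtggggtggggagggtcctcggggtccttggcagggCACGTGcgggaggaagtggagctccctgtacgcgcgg

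In sensitive HT-29 cells, 5-FU lowered nearly the whole set. The test was edgeR's quasi-likelihood test over all genes of a line with Benjamini-Hochberg adjustment, and a gene is called where the adjusted p is at most 0.01. By it 42 of the 45 genes were lower and 0 higher, where 24.9% of all tested genes were lower and 22.1% higher. The median log2 fold change of the 45 genes was -0.63, and that of all genes was 0.03. A fall of at least 2-fold was found for 4 genes (12.2% of all genes passed that limit in either direction). All 45 genes lay below the median of all genes, an order that scaling cannot test because it shifts all genes alike. EXOSC10, NOP10 and NOP2 were the genes not called. Scaling by library size alone, which moved the median of all genes to 0.19, gave 38 lower and 1 higher, EXOSC10 (0.14). Of all 23756 genes, 4354 were then lower and 7135 higher. The main fit took its filter, scaling and spread from all libraries labelled HT-29, the resistant-labelled HT-29 libraries among them. A fit of the compared groups only called 40 of the 45 genes lower and 0 higher (5475 and 5059 of 20705 genes).

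Sensitive HCT-116 cells showed another pattern, with 22 of the 45 genes higher and 9 lower after 5-FU, where 17.6% of all genes were higher and 24.4% lower. The median log2 fold change was 0.12, against 0.03 for all genes, and 0 members reached 2-fold, whereas 8.14% of all genes did. Scaling by library size alone, which moved the median of all genes to 0.11, gave 27 higher and 6 lower (5159 and 4482 of 22975 genes). In the same libraries the share of TPM in mitochondrial transcripts was 7.33% to 9.94% with uracil and 14.5% to 15.1% with 5-FU, and its part in the result was not tested.

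In sensitive DLD-1 cells 12 genes were lower and 2 higher, where 20.3% of all genes were lower and 14.4% higher. The median was -0.06 against 0.01 for all genes, and again 0 members reached 2-fold (4.02% of all genes did). The split rested on the scaling. By library size alone, which moved the median of all genes to 0.12, 9 members were lower and 12 higher. Of all 21814 genes, 2985 were then lower and 4637 higher. A fit of the compared groups only called 16 members lower and 9 higher (4945 and 4010 of 20702 genes).

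The lines thus differed in which genes moved. FBL, NPM1, EXOSC3, EXOSC8 and UBTF were lower in all 3 lines, which is 11.1% of the 45 genes and 7.98% of the 20024 genes tested in every line. By contrast 20 of the 45 genes (44.4%) were higher in HCT-116 and lower in HT-29, and 4.46% of all genes had that pattern. Among these 20, some HCT-116 calls were lost with a library left out. DIS3 was lost in all 6 fits, PES1 in 3, UTP20 in 2 and HEATR1 in 1. The plot of log2 fold changes by gene and comparison shows both patterns.

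**Figure D1:**
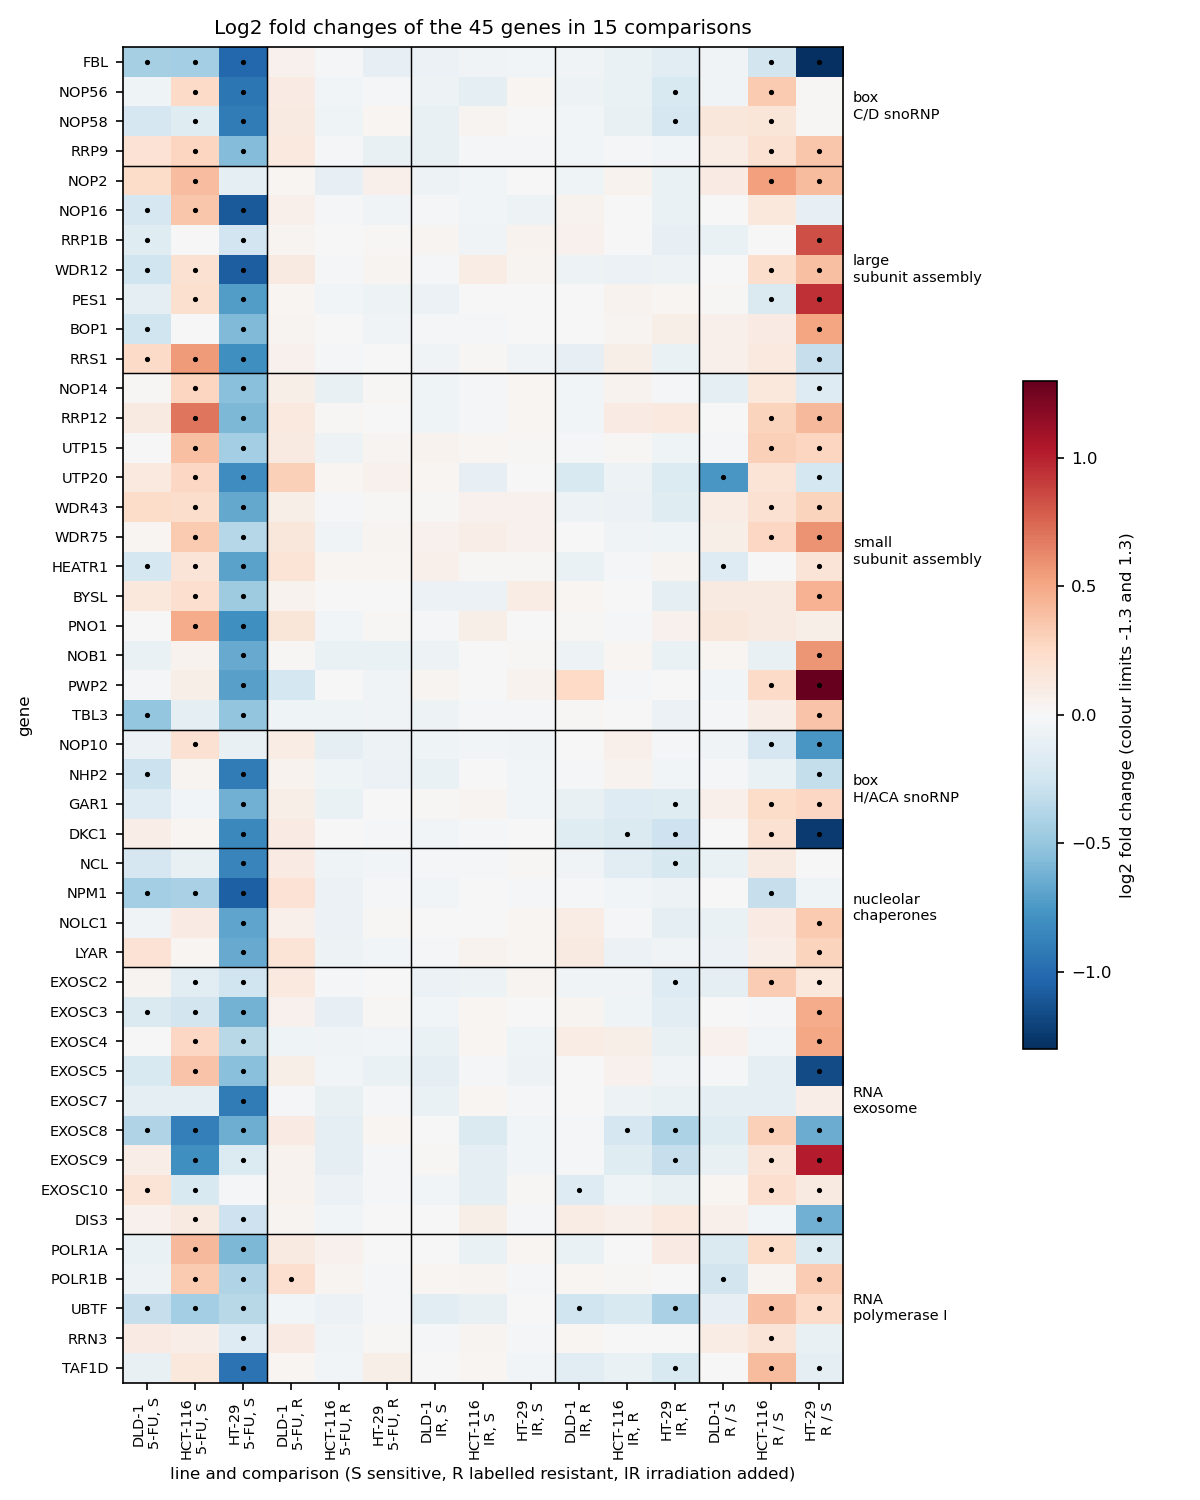
Log2 fold changes of the 45 genes (lines, ordered by role) in 15 comparisons (columns), with red for higher, blue for lower and a black point where the adjusted p was at most 0.01. The 5-FU column of sensitive HT-29 cells is blue for 42 called genes, the HCT-116 column beside it holds 22 higher and 9 lower genes, and the 5-FU columns of resistant cells hold 1 call in all. The values of PWP2 (higher) and FBL (lower) in the last column lie beyond the ends of the colour scale.

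The differences between lines were tested directly in a fit of all 54 libraries, which was added after the data had been seen. The 5-FU response of sensitive cells was lower in HT-29 than in HCT-116 for 39 genes and higher for 3 (15.0% and 19.9% of all genes), with a median difference of -0.70 on the log2 scale against 0.05 for all genes. In 8 genes the difference was at least 2-fold, namely NOP16 (-1.40), RRS1 (-1.29), PNO1 (-1.22), RRP12 (-1.22), WDR12 (-1.20), NOP56 (-1.13), TAF1D (-1.03) and UTP20 (-1.02). The exosome genes EXOSC9 (0.68), EXOSC8 (0.32) and EXOSC10 (0.24) were the ones that differed the other way. Between HT-29 and DLD-1 the response was lower in HT-29 for 36 genes and higher for 0 (11.4% and 15.7% of all genes), with a median of -0.51 against 0.07 for all genes. DESeq2 also called 0 of the 45 genes higher there. Between HCT-116 and DLD-1 it was higher in HCT-116 for 20 genes and lower for 3 (12.0% and 13.3% of all genes), the 3 being EXOSC9 (-0.88), EXOSC8 (-0.49) and EXOSC10 (-0.37).

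**Figure D2:**
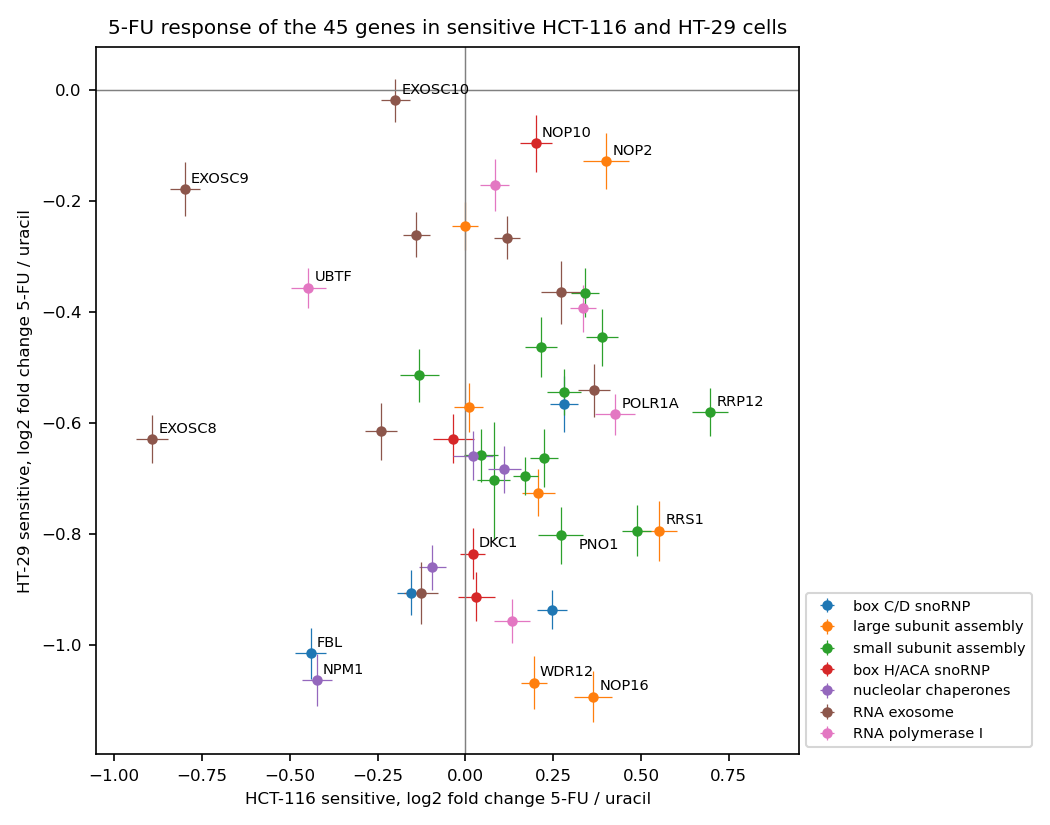
Log2 fold change after 5-FU in sensitive HCT-116 cells (horizontal) and sensitive HT-29 cells (vertical) for each of the 45 genes, coloured by role, with bars of 1 standard error. All points lie at or below 0 on the vertical axis, while on the horizontal axis they run from EXOSC8 at -0.89 to RRP12 at 0.70.

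The 4 box C/D snoRNP genes were all lower in HT-29, with a median log2 fold change of -0.92, against 2 higher and 2 lower in HCT-116 and 1 lower in DLD-1. FBL (chromosome 19, 39834458 to 39846379, minus strand, GRCh38) encodes the enzyme that methylates ribosomal RNA. In sensitive HT-29 cells FBL stood at 1009, 1028 and 963 TPM with uracil and at 589, 547 and 576 TPM with 5-FU, so that the groups lay far apart. The log2 fold change was -1.02 (SE 0.046, adjusted p = 6.5e-16). In HCT-116 cells FBL went from 553, 505 and 534 TPM to 393, 388 and 392 TPM, a log2 fold change of -0.44 (SE 0.045, adjusted p = 2.5e-08). DLD-1 cells gave 404, 402 and 407 TPM with uracil and 306, 315 and 332 TPM with 5-FU, also with no overlap and a log2 fold change of -0.44 (SE 0.052, adjusted p = 6.6e-07).
NOP56, a core scaffold of the same particle, was at 385, 395 and 412 TPM in HT-29 cells with uracil and at 236, 233 and 239 TPM with 5-FU, a log2 fold change of -0.94. In HCT-116 cells it moved the opposite way, from 379, 423 and 395 TPM to 489, 477 and 493 TPM, a log2 fold change of 0.25. The transcripts of NOP56 did not move alike. A transcript (NOP56-216) that is annotated without a coding sequence went from a mean of 141 to 54.5 TPM in HT-29 and from 108 to 80.2 TPM in HCT-116, while the main coding transcript went from 98 to 73.9 TPM in HT-29 and from 109 to 120 TPM in HCT-116. These transcript values were not tested. RRP9, a protein bound to the U3 snoRNA, whose promoter is printed above, rose in HCT-116 from 65.6, 63.1 and 67.1 TPM to 79.6, 79.3 and 80.6 TPM, a log2 fold change of 0.28 (SE 0.039, adjusted p = 2.5e-06), and fell in HT-29 by 0.57 on the log2 scale.

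Of the 7 large subunit factors 6 were lower in HT-29 (median -0.73), 5 were higher in HCT-116 (median 0.21), and in DLD-1 4 were lower and 1 higher. NOP16, a nucleolar factor of the large subunit (chromosome 5, 176383946 to 176388927, minus strand), gave 82.6, 84.3 and 84.7 TPM with uracil and 46.7, 46.1 and 48.8 TPM with 5-FU in HT-29. The log2 fold change was -1.09 (SE 0.045, adjusted p = 1.2e-16). NOP16 in HCT-116 went the other way, from 71.5, 74.2 and 75.5 TPM to 97.5, 95.5 and 99.5 TPM (log2 fold change 0.36, SE 0.053, adjusted p = 4.9e-06). In neither line did the groups overlap.
WDR12, which works with PES1 and BOP1 in 1 complex, stood at 101, 95.2 and 87.5 TPM with uracil and at 59.1, 50.5 and 54.4 TPM with 5-FU in HT-29 (log2 fold change -1.07, SE 0.048, adjusted p = 5.4e-16). Its complex partners fell in HT-29 as well, PES1 by 0.73 and BOP1 by 0.57 on the log2 scale. In DLD-1 the largest rise of the role was that of RRS1, a factor that recruits the 5S ribonucleoprotein, from 53.7, 53.1 and 50.9 TPM to 67.3, 66.7 and 67.0 TPM (log2 fold change 0.25, SE 0.069, adjusted p = 0.0057), a call lost without any 1 of the 6 libraries. BOP1 and WDR12 fell there by 0.26 each. RRS1 also rose in HCT-116, from 43.2, 46.1 and 45.7 TPM to 66.0, 67.4 and 64.6 TPM (log2 fold change 0.55, SE 0.052, adjusted p = 8.1e-09), and fell by 0.79 in HT-29. NOP2, a cytosine methyltransferase of 28S ribosomal RNA, was the large subunit gene not called in HT-29, at 74.3, 72.2 and 80.4 TPM with uracil and 78.7, 81.3 and 81.3 TPM with 5-FU (adjusted p = 0.032).

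All 12 small subunit factors were lower in HT-29 (median -0.62), whereas 9 were higher and 0 lower in HCT-116 (median 0.25). In DLD-1 only TBL3 and HEATR1 were called, both lower. RRP12, needed for export and maturation of pre-ribosomes (chromosome 10, 97356358 to 97426076, minus strand), had the largest rise in HCT-116. It gave 28.5, 28.6 and 27.7 TPM with uracil and 46.9, 45.1 and 44.2 TPM with 5-FU, a log2 fold change of 0.70 (SE 0.051, adjusted p = 1.2e-10), with no overlap. PNO1, which holds the 3′ end of 18S ribosomal RNA until it is cut, rose from 40.7, 42.2 and 40.6 TPM to 60.7, 57.2 and 57.6 TPM in HCT-116 (log2 fold change 0.49, SE 0.042, adjusted p = 1.7e-09).
The largest fall of the role in HT-29 was that of UTP20, whose promoter is printed above. It was at 12.1, 10.9 and 13.7 TPM with uracil and at 8.77, 8.13 and 8.42 TPM with 5-FU, a log2 fold change of -0.80 (SE 0.052, adjusted p = 6.1e-13). In DLD-1 the U3 snoRNP-associated protein TBL3 went from 45, 45.4 and 48.7 TPM to 31.9, 29.3 and 30.3 TPM (log2 fold change -0.50, SE 0.037, adjusted p = 9e-10), the largest called fall of the 45 genes in that line.

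Box H/ACA snoRNP genes were lower in HT-29 for 3 of 4 (median -0.73), higher for 1 in HCT-116 and lower for 1 in DLD-1. DKC1 (dyskerin), the pseudouridine synthase of the particle (chromosome X, 154762742 to 154777689, plus strand), is named in every comparison. DKC1 stood at 297, 305 and 297 TPM with uracil and at 208, 192 and 203 TPM with 5-FU in HT-29, a log2 fold change of -0.84 (SE 0.046, adjusted p = 2.8e-14). In HCT-116 it was at 121, 119 and 123 TPM and then 131, 130 and 124 TPM, which passed no threshold (log2 fold change 0.02, adjusted p = 0.66). In DLD-1 the values were 153, 152 and 147 TPM and then 174, 183 and 165 TPM, with a log2 fold change of 0.08 (adjusted p = 0.27) on the count scale.
NHP2, another core protein of the particle, had the largest fall of the role, from 259, 265 and 248 TPM to 162, 163 and 157 TPM in HT-29 (log2 fold change -0.91), and was also lower in DLD-1 (log2 fold change -0.28, SE 0.042, adjusted p = 1.1e-05). NOP10, its small partner, was not called in HT-29 at 340, 316 and 308 TPM with uracil and 343, 340 and 354 TPM with 5-FU (adjusted p = 0.12). NOP10 was the H/ACA gene that rose in HCT-116, from 244, 231 and 247 TPM to 277, 272 and 291 TPM (log2 fold change 0.20, SE 0.046, adjusted p = 0.00087). That call was lost without HCT-116 sensitive 5-FU replicate 3 or uracil replicate 2, with log2 fold changes between 0.14 and 0.22 over the fits with a library left out.

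All 4 nucleolar chaperones were lower in HT-29 (median -0.77), and NPM1 was the chaperone called in the other lines. NPM1 (chromosome 5, 171387116 to 171411810, plus strand) was at 2695, 2811 and 2517 TPM with uracil and at 1608, 1478 and 1513 TPM with 5-FU in HT-29, a log2 fold change of -1.06 (SE 0.047, adjusted p = 4.8e-16). HCT-116 cells gave 4004, 3872 and 4301 TPM and then 2863, 3044 and 3014 TPM (log2 fold change -0.42, SE 0.042, adjusted p = 2e-08). DLD-1 cells gave 4422, 4180 and 4338 TPM and then 3368, 3384 and 3426 TPM (log2 fold change -0.44, SE 0.056, adjusted p = 1.5e-06). No line showed an overlap between the groups for this gene. NCL was lower in HT-29, from 1015, 1076 and 1024 TPM to 713, 668 and 655 TPM (log2 fold change -0.86), and so were the snoRNP assembly chaperone NOLC1 (log2 fold change -0.68) and the nucleolar protein LYAR (log2 fold change -0.66).

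Because NPM1 and NCL dominate any sum, they were set apart from the other 43 genes. The summed TPM of NPM1 and NCL fell by 40.4% in HT-29, 22.1% in HCT-116 and 17.9% in DLD-1 sensitive cells given 5-FU, as values with no test. For the other 43 genes the sum dropped by 27.2% in HT-29 and differed by 4.07% in HCT-116 and 0.0472% in DLD-1. In HT-29 the sums of the other 43 genes were 4857, 4897 and 4760 TPM with uracil and 3571, 3452 and 3538 TPM with 5-FU. In resistant DLD-1 cells the sum of NPM1 and NCL was 10.5% higher with 5-FU, where the first uracil library held 5258 TPM and the others 6299 and 6101 TPM.

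**Figure D3:**
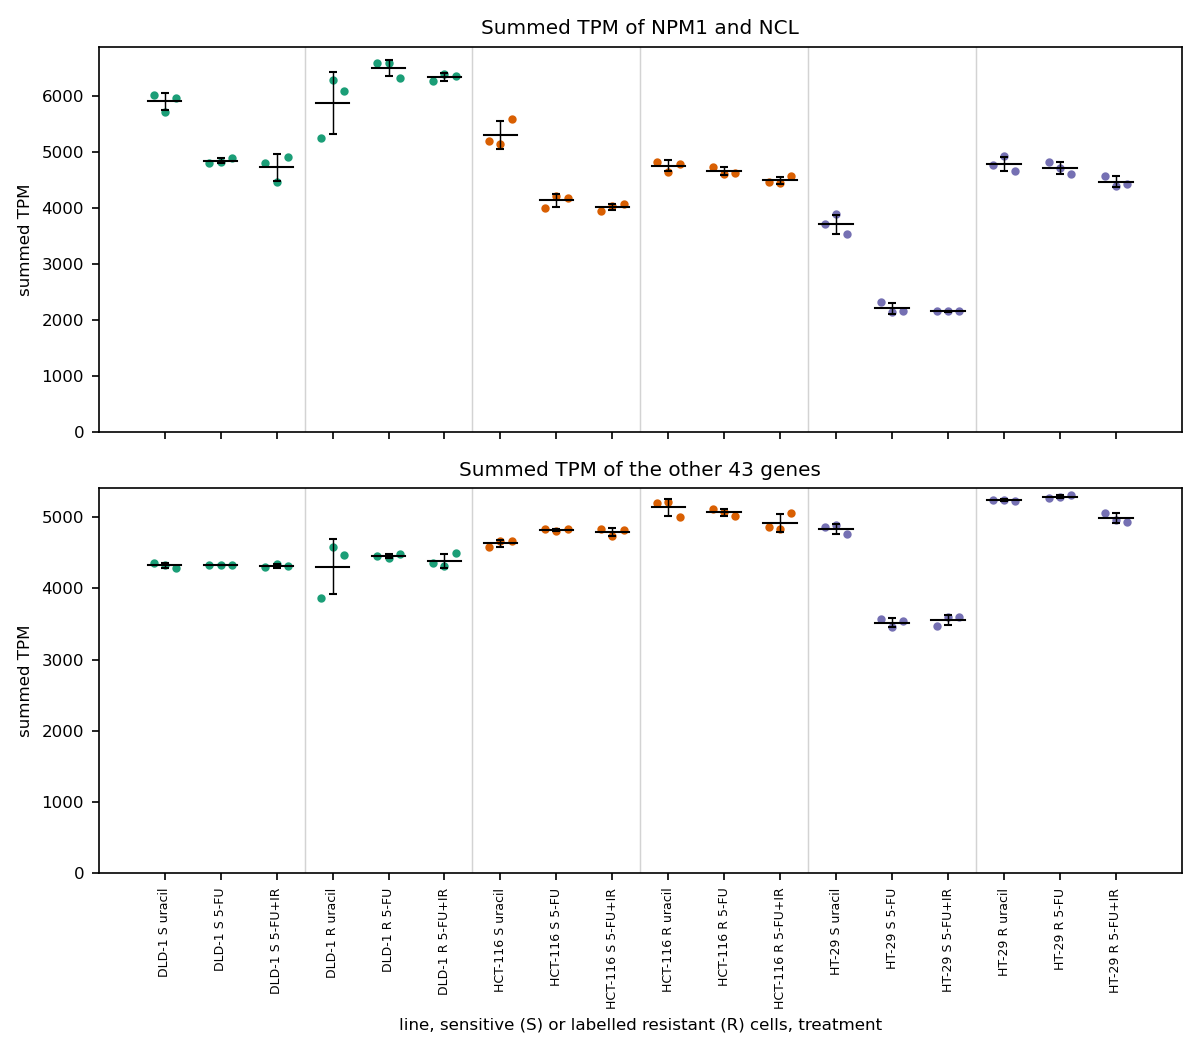
Summed TPM of NPM1 and NCL (upper panel) and of the other 43 genes (lower panel) in each library (points) of the 18 conditions, with the mean (bar) and SD of 3 libraries. In sensitive HT-29 cells the other 43 genes lay at 4760 to 4897 TPM with uracil and at 3452 to 3571 TPM with 5-FU.

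Of the 9 exosome genes 8 were lower in HT-29 (median -0.37), 5 were lower and 3 higher in HCT-116 (median -0.14), and 2 were lower and 1 higher in DLD-1. EXOSC8 (chromosome 13, 36998816 to 37025881, plus strand), a subunit of the exosome ring, had the largest fall of the 45 genes in HCT-116. It went from 78.6, 75.9 and 80.1 TPM with uracil to 41.5, 41.5 and 43 TPM with 5-FU, a log2 fold change of -0.89 (SE 0.045, adjusted p = 2.2e-13). EXOSC9, also a ring subunit, went from 98.6, 105 and 108 TPM to 58.1, 58.6 and 58.6 TPM in the same cells (log2 fold change -0.80, SE 0.042, adjusted p = 5.7e-13).
EXOSC8 was also lower in DLD-1, from 107, 105 and 102 TPM to 81.5, 86.5 and 88.2 TPM (log2 fold change -0.39, SE 0.046, adjusted p = 5.3e-07), and in HT-29 (log2 fold change -0.63, SE 0.043, adjusted p = 2.2e-12). The coding transcript EXOSC8-202 carried most of it, with means of 60.5 TPM with uracil and 28.7 TPM with 5-FU in HCT-116. EXOSC5, another ring subunit, rose in HCT-116 from 52.2, 49.1 and 51.3 TPM to 66.9, 64.7 and 70.4 TPM (log2 fold change 0.37, SE 0.046, adjusted p = 6.6e-07). In HT-29 the largest fall of the role was that of EXOSC7, from 61.3, 63.9 and 57.1 TPM to 39.7, 36.8 and 37.3 TPM (log2 fold change -0.91, SE 0.056, adjusted p = 2.4e-13).
EXOSC10, the nuclear exoribonuclease of the complex, went its own way. In DLD-1 it rose from 87.5, 89.7 and 87.5 TPM to 111, 113 and 105 TPM (log2 fold change 0.18, SE 0.039, adjusted p = 0.00081). In HT-29 it was not called on the count scale (log2 fold change -0.02, adjusted p = 0.70), with 58.6, 66.0 and 62.8 TPM and then 73.3, 75.3 and 80.0 TPM. In HCT-116 the counts gave a log2 fold change of -0.20 (SE 0.042, adjusted p = 0.00033), while the TPM values overlapped at 76.4, 79.7 and 74.0 with uracil and 82.3, 78.2 and 81.3 with 5-FU. The direction in HCT-116 thus held for scaled counts and not for TPM.

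All 5 RNA polymerase I genes were lower in HT-29 (median -0.39), 2 were higher and 1 lower in HCT-116, and UBTF was lower in DLD-1. TAF1D, a subunit of the promoter selectivity factor, had the largest fall of the role, from 229, 235 and 260 TPM to 151, 143 and 146 TPM in HT-29 (log2 fold change -0.96, SE 0.040, adjusted p = 1.1e-16). Transcripts of the protein-coding class held 17.6% of the TPM of TAF1D in sensitive HT-29 cells with uracil. POLR1A, the largest subunit of the polymerase (chromosome 2, 86020216 to 86106155, minus strand), fell in HT-29 from 24.5, 26.0 and 28.6 TPM to 17.7, 17.5 and 19.5 TPM (log2 fold change -0.59, SE 0.037, adjusted p = 4.2e-13). In HCT-116 it was called higher (log2 fold change 0.43, SE 0.057, adjusted p = 1.4e-06) although the TPM values overlapped, at 19.9, 25.3 and 21.4 with uracil and 26.6, 24.3 and 25.9 with 5-FU. In DLD-1 POLR1A was not called (log2 fold change -0.08, adjusted p = 0.25), with 40.2, 40.9 and 38.7 TPM and then 34.7, 33.8 and 31.7 TPM.
UBTF, the factor that opens ribosomal DNA for transcription, was lower in each line. In HCT-116 it went from 61.2, 65.5 and 61.5 TPM to 45.9, 44.2 and 44.9 TPM (log2 fold change -0.45, SE 0.050, adjusted p = 1e-07), and in DLD-1 from 86.7, 90.9 and 88.1 TPM to 81.7, 78.2 and 72.3 TPM (log2 fold change -0.30, SE 0.050, adjusted p = 3.6e-05). Its fall in HT-29 was 0.36 on the log2 scale.

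**Figure D4:**
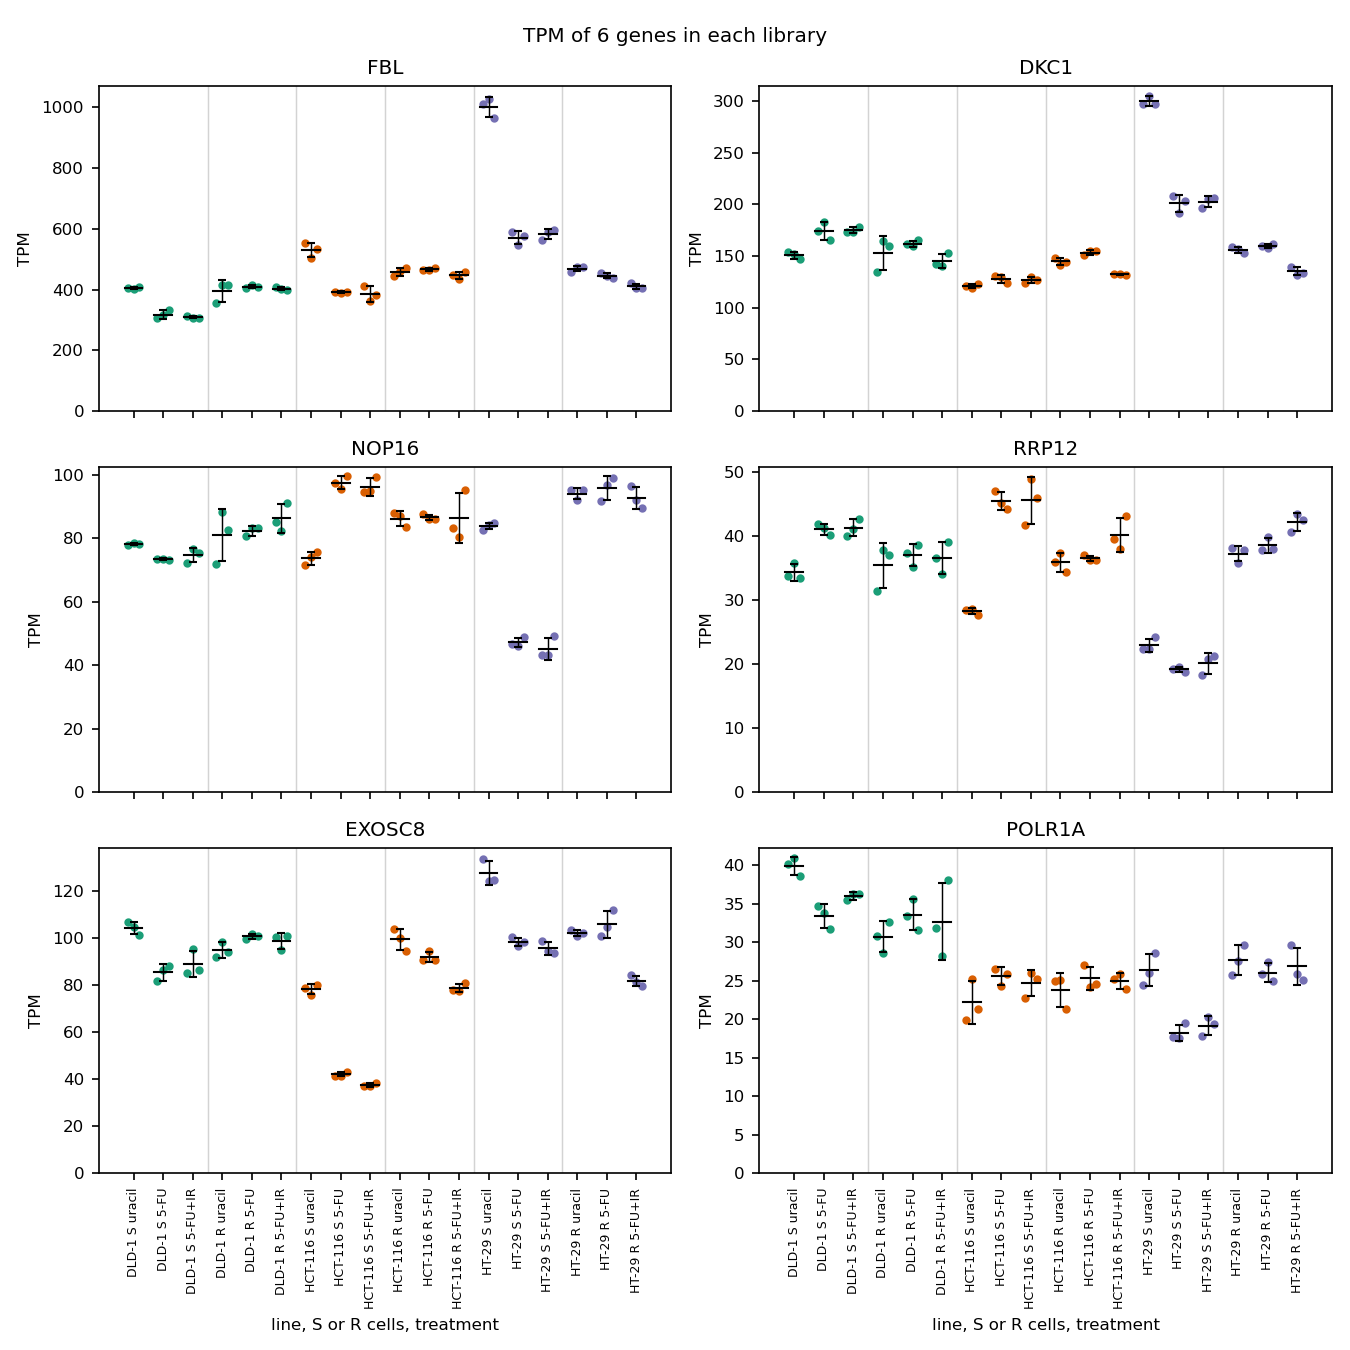
TPM of FBL, DKC1, NOP16, RRP12, EXOSC8 and POLR1A in each library (points) of the 18 conditions, with the mean (bar) and SD of 3 libraries and axes that start at 0. NOP16 falls with 5-FU in sensitive HT-29 cells and rises in sensitive HCT-116 cells, and EXOSC8 in sensitive HCT-116 cells drops to 41.5, 41.5 and 43 TPM.

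The scale of the values mattered for size and, in sensitive DLD-1 cells, for the sign of the median. In sensitive HT-29 cells the median log2 change of the 45 genes was -0.36 in TPM and -0.63 in scaled counts. In sensitive DLD-1 cells it was 0.05 in TPM and -0.06 in scaled counts, and in sensitive HCT-116 cells 0.09 and 0.12. Of the genes called after 5-FU, 35 of 42 in HT-29, 27 of 31 in HCT-116 and 13 of 14 in DLD-1 also had TPM groups that did not overlap in the same direction. These TPM come from the libraries that gave the calls, and the share over all called genes was not counted. RRP1B, EXOSC9 and RRN3 in HT-29 and EXOSC10 in HCT-116 had the opposite direction in TPM. EXOSC9 and RRN3 in HT-29 were each lost as calls without any of 5 of the 6 libraries, and RRP1B without HT-29 sensitive uracil replicate 2.

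Among the 14 genes whose promoter window held CACGTG, 12 were lower in HT-29 (median -0.64), 10 were higher and 1 lower in HCT-116 (median 0.22), and 1 was lower in DLD-1. Among the 24 genes with windows that lacked it, 23 were lower in HT-29 (median -0.62), 9 were higher and 7 lower in HCT-116 (median 0.04), and 9 were lower and 1 higher in DLD-1. The difference between these groups of genes was not tested. MYC mRNA itself was lower after 5-FU in DLD-1 (log2 fold change -0.64, adjusted p = 5.4e-10) and HT-29 (log2 fold change -1.40, adjusted p = 1.7e-17) and higher in HCT-116 (log2 fold change 0.50, adjusted p = 2e-07). Its mean level went from 99.4 to 69.4 TPM, from 129 to 57.2 TPM and from 260 to 373 TPM in the same order. What part MYC had in the levels of the 45 genes was not tested.

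Other genes of the pathway, listed by function but with earlier results of these data known, mostly went the same way in HT-29. Of 39 other small subunit processome genes 35 were lower and 0 higher there (median -0.52), of 51 other large subunit genes 44 were lower and 2 higher (median -0.50), and all 15 snoRNA host genes were lower (median -0.63). Of 16 other exosome genes and cofactors 8 were lower and 2 higher (median -0.16). The shares over all genes in HT-29 were 24.9% lower and 22.1% higher. In HCT-116 the same lists gave 10 lower and 13 higher, 9 lower and 17 higher, 3 lower and 6 higher, and 5 lower and 4 higher, where 24.4% of all genes were lower and 17.6% higher, so that several of these counts lie near the background. Ribosomal proteins fell in HT-29 for 43 of 43 large subunit genes (median -0.84) and 31 of 32 small subunit genes (median -0.74), and in HCT-116 11 of each were lower and 1 small subunit gene was higher, with medians of -0.10 and -0.05. In DLD-1 33 of 43 and 25 of 32 were lower, against 20.3% of all genes.
Some genes of these lists were lower in all 3 sensitive lines. The log2 fold change of NOC4L, a small subunit factor, was -0.89 in HT-29, -0.78 in HCT-116 and -0.67 in DLD-1. LAS1L, which takes part in cutting the second internal spacer, had -0.96, -0.50 and -0.74 in that order, and the exoribonuclease XRN2 had -0.65, -0.47 and -0.36. The RNA acetyltransferase NAT10 had -1.40, -0.20 and -0.33. RPP40, a subunit of RNase P and RNase MRP, was higher in all 3, with 0.27, 0.66 and 0.48.

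Resistant cells barely responded to 5-FU in these genes. In resistant DLD-1 cells 1 of the 45 genes was called, where 0.385% of all genes were called in either direction. That was the polymerase subunit POLR1B, higher with 5-FU (38.3, 34.9 and 35.0 TPM against 39.2, 42.3 and 39.1 TPM, log2 fold change 0.22, SE 0.038, adjusted p = 0.006). The call was lost without any 1 of 4 of the 6 libraries, and without DLD-1 resistant uracil replicate 2 the count was 2. In resistant HCT-116 cells edgeR called 0 of the 45 genes (0% of all genes), and in the resistant-labelled HT-29 libraries 0 as well (0.0421% of all genes). At an unadjusted p under 0.05 there were 10, 4 and 1 genes in the 3 lines, and DESeq2 called 3, 0 and 0. The share of all genes at that unadjusted p was not counted. In resistant DLD-1 cells the 3 were higher, where DESeq2 called 158 genes higher and 381 lower of 13809. DKC1, EXOSC10 and POLR1A stood at 0.10, 0.04 and 0.11 on the log2 fold change scale for DLD-1, at -0.01, -0.08 and 0.05 for HCT-116, and at -0.02, -0.03 and -0.01 for the resistant-labelled HT-29 libraries, none of them called.

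Whether the 5-FU response itself differed between resistant and sensitive cells was tested as an interaction. In DLD-1 it was higher in resistant cells for 13 genes and lower for 0 (13.7% and 9.12% of all genes), led by NPM1 (0.62), FBL (0.50), EXOSC8 (0.50), TBL3 (0.44) and HEATR1 (0.41). DESeq2 called 0 lower as well. Scaled by library size alone the split was 7 higher and 1 lower (1930 and 2989 of 21814 genes). Without DLD-1 resistant uracil replicate 1 it was 15 higher and 6 lower. DKC1 (0.02), EXOSC10 (-0.13) and POLR1A (0.20) were not called.
In HCT-116 the response was lower in resistant cells for 19 genes and higher for 5 (11.4% and 18.3% of all genes). With a library left out, 14 to 17 genes were lower and 5 higher. BYSL and PES1 were lost in all 12 fits, WDR12 in 10 and EXOSC4 in 8. RRP12 (-0.69), RRS1 (-0.57), PNO1 (-0.52), NOP2 (-0.50) and POLR1A (-0.37) were among the lower genes, and the 5 higher ones were EXOSC8 (0.77), EXOSC9 (0.69), FBL (0.43), UBTF (0.37) and NPM1 (0.35). Those are genes that fell in the sensitive cells, which enter this difference. DKC1 (-0.03) and EXOSC10 (0.12) were not called.
Between the resistant-labelled HT-29 libraries and sensitive HT-29 cells 40 genes were higher and 0 lower (19.3% and 16.1% of all genes), and in all 45 the difference lay above that of the median gene. WDR12 (1.10), NOP16 (1.05), NPM1 (1.04) and TAF1D (1.03) passed 2-fold, DKC1 (0.82) and POLR1A (0.58) were called, and EXOSC10 (-0.01) was not. Since these libraries carry HCT-116 markers, resistance and line cannot be told apart in this difference.

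With uracil alone, resistant DLD-1 cells differed from sensitive ones in 3 of the 45 genes, all lower (11.5% of all genes were lower and 13.1% higher, and 5.70% differed at least 2-fold, which 0 members did). UTP20 had the largest difference, at 20.5, 20.8 and 19.5 TPM in sensitive and 10.9, 13 and 13 TPM in resistant cells (log2 fold change -0.75, SE 0.064, adjusted p = 7.4e-09). POLR1B (-0.24) and HEATR1 (-0.16) were the others, while DKC1 (0.00), EXOSC10 (0.02) and POLR1A (-0.19, adjusted p = 0.014) were not called. HEATR1 was lost without DLD-1 sensitive uracil replicate 1. The count rested on 1 library, since without DLD-1 resistant uracil replicate 1 it was 14 higher and 4 lower. The mitochondrial share of TPM was 7.39% to 8.84% in the sensitive and 5.36% to 6.08% in the resistant uracil libraries, and its part in the result was not tested.
In resistant DLD-1 cells given 5-FU, UTP20 stood at 15.1, 14.5 and 15.1 TPM. These values lay below those of sensitive cells with uracil, but treatment and resistance differ together between these groups.

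In HCT-116 resistant cells 20 genes were higher and 4 lower than in sensitive cells with uracil (16.4% and 24.7% of all genes), with a median of 0.13 and 0 members at 2-fold (11.0% of all genes). NOP2 rose most, from 86.2, 92.9 and 85.4 TPM to 139, 143 and 118 TPM (log2 fold change 0.53, SE 0.066, adjusted p = 5.6e-07). TAF1D (199, 230 and 212 against 297, 296 and 272 TPM, log2 fold change 0.41), UBTF (0.38), NOP56 (0.34), EXOSC2 (0.33) and UTP15 (0.31) were among the others. GAR1 (0.24), POLR1A (0.24), EXOSC10 (0.21) and DKC1 (0.20) were higher too. The 4 lower genes were NPM1 (-0.30), FBL (-0.24), NOP10 (-0.22) and PES1 (-0.18). Of them NPM1 was at 3399, 3252 and 3451 TPM in resistant cells, below all 3 sensitive libraries. With a library left out, PES1 was lost in 4 of 6 fits (-0.19 to -0.14), NOP10 in 3 (-0.24 to -0.16) and GAR1 in 2 (0.19 to 0.32). GAR1 was lost without HCT-116 resistant uracil replicate 1 or without HCT-116 sensitive uracil replicate 2. By library size alone 29 genes were higher and 3 lower. The share of TPM in mitochondrial transcripts was 7.33% to 9.94% in the sensitive and 11.8% to 12.95% in the resistant uracil libraries, and its part in the result was not tested.

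The resistant-labelled HT-29 libraries differed from sensitive HT-29 cells with uracil in 37 genes, 25 higher and 12 lower (34.1% and 34.3% of all genes), and 5 members passed 2-fold, which 39.4% of all genes did. By library size alone, which moved the median of all genes to 0.26, 35 were higher and 6 lower (10094 and 6444 of 23756 genes). FBL was at 458, 474 and 475 TPM (log2 fold change -1.38, SE 0.047, adjusted p = 1.6e-19), DKC1 at 159, 156 and 152 TPM (-1.25) and EXOSC5 at 57.6, 54.4 and 54.5 TPM against 109, 101 and 100 TPM (-1.16). EXOSC9 stood at 128, 126 and 116 TPM against 48.0, 49.4 and 45.2 TPM (1.02). PES1 (0.95) and RRP1B (0.84) were higher, NOP10 (-0.75), RRS1 (-0.30), UTP20 (-0.23) and POLR1A (-0.19) were lower, and EXOSC10 (0.12) was called higher. With 1 of the resistant-labelled HT-29 libraries left out, whichever it was, EXOSC10 was no longer called (0.10 to 0.21 over 6 fits, the highest without HT-29 sensitive uracil replicate 2). UTP20 was lost without HT-29 sensitive uracil replicate 1 (-0.18) or replicate 3 (-0.14). The mitochondrial share was 7.07% to 10.5% in sensitive and 10.6% to 11.4% in these uracil libraries, and its part was not tested. The directions of NOP14, UTP20, POLR1A and TAF1D were turned by library-size scaling and differed in TPM.
Set against HCT-116, the same libraries differed in fewer of the 45 genes from the resistant than from the sensitive cells of that line. Against sensitive HCT-116 cells 14 genes were higher and 3 lower (12.4% and 17.8% of all genes), the lower ones being NPM1 (-0.39), FBL (-0.31) and NOP10 (-0.18). By library size alone 30 were higher and 2 lower (4975 and 3673 of 26043 genes). Against resistant HCT-116 cells 0 genes were higher and 4 lower (11.3% and 8.91% of all genes), so that the lower count lies near the background. The 4 were TAF1D (-0.19), RRN3 (-0.18), EXOSC10 (-0.16) and EXOSC2 (-0.15). DESeq2 called 1 higher and 4 lower there (3242 and 2380 of 20782 genes). Of the 45 genes 11 had an unadjusted p under 0.05, and the share of all genes at that limit was not counted. By library size alone the split was 2 higher and 2 lower (3802 and 2048 of 26043 genes). Without HCT-116 resistant uracil replicate 2 edgeR called 0 genes, with replicate 1 left out it called 1, and with 1 of the resistant-labelled HT-29 libraries left out it called 1 or 2.

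PWP2, a small subunit processome protein on chromosome 21 (44107373 to 44131181, plus strand), needs a reading of its own. It had the largest difference, at 49.8, 53.2 and 53.9 TPM in the resistant-labelled HT-29 libraries and 4.62, 5.39 and 4.55 TPM in sensitive HT-29 cells (log2 fold change 4.17, SE 0.075, adjusted p = 2.1e-25). However, 93.2% of the 3211 words of 31 bases in its protein-coding transcripts, untranslated parts included, also occur in a near-identical gene copy (ENSG00000275464), which the annotation marks as an artifact of the assembly, so reads could be split between both. With the counts of the copy added, which was chosen after seeing the data, the log2 fold change was 1.15. The mean sums of gene and copy were 24.0 TPM in sensitive HT-29, 49.8 in sensitive DLD-1, 59.0 in sensitive HCT-116, 72.4 in resistant HCT-116 and 73.3 in the resistant-labelled HT-29 libraries. After 5-FU the value with the copy was -0.79 in sensitive HT-29 cells, against -0.70 without it, and -0.31 in sensitive DLD-1 cells (adjusted p = 4.2e-06), against -0.03 without it. Of the other genes NOP2 (71.4%), NPM1 (42.1%), RRN3 (31.2%), NOB1 (23.6%), NHP2 (19.1%) and EXOSC3 (11.1%) shared at least 10% of such words with other genes, and their values carry the same uncertainty.

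**Figure D5:**
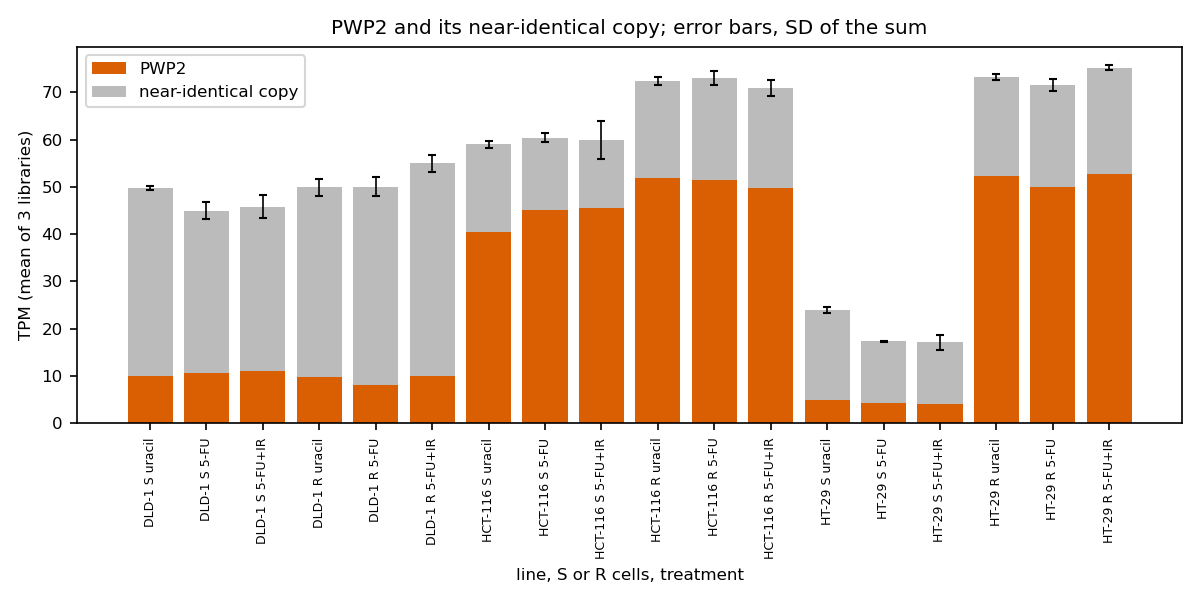
Mean TPM of PWP2 (lower part of each bar) and of its near-identical copy (upper part) in the 18 conditions, with error bars for the SD of the sum over 3 libraries. In sensitive HT-29 cells with uracil PWP2 holds 4.86 TPM and the copy 19.2 TPM, and in the resistant-labelled HT-29 libraries PWP2 holds 52.3 TPM and the copy 21.0 TPM.

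Irradiation added to 5-FU gave no call among the 45 genes in sensitive cells of any line, where edgeR called 0.00842% of all genes in HT-29, 0.927% in HCT-116 and 0.0642% in DLD-1. At an unadjusted p under 0.05 there were 0, 7 and 1 of the 45 genes, and DESeq2 called 0 in each. The share of all genes at that unadjusted p was not counted. FBL, for example, was at 563, 588 and 595 TPM in irradiated sensitive HT-29 cells, within and just above the values with 5-FU alone.
In resistant cells irradiation lowered a few genes. In DLD-1 2 genes were lower (1.43% of all genes), UBTF (76.8, 74.3 and 81.1 against 67.3, 64.7 and 71.5 TPM, log2 fold change -0.26, SE 0.050, adjusted p = 0.0026) and EXOSC10 (-0.17, adjusted p = 0.0081). EXOSC10 was lost without any 1 of the 6 libraries and UBTF without any 1 of 4, so that 0 or 1 genes were left. In HCT-116 2 genes were lower (0.884% of all genes), DKC1 (151, 155 and 154 against 133, 133 and 132 TPM, log2 fold change -0.19, SE 0.036, adjusted p = 0.0027) and EXOSC8 (-0.21, adjusted p = 0.0041), and between 0 and 3 genes were called with a library left out. The 3 were called without HCT-116 resistant 5-FU + irradiation replicate 3.
In the resistant-labelled HT-29 libraries 10 genes were lower and 0 higher (6.94% of all genes were lower). DESeq2 called 11 lower and 0 higher (1965 and 1880 of 15791 genes), and library size alone gave 11 lower and 2 higher (1681 and 2421 of 23756 genes). UBTF went from 86.3, 84.8 and 85.2 TPM to 64.6, 67.3 and 66.3 TPM (log2 fold change -0.42, SE 0.036, adjusted p = 4.9e-09), and EXOSC8 from 101, 105 and 112 TPM to 84.1, 81.4 and 79.6 TPM (-0.41). The groups did not overlap for either gene. EXOSC9 (-0.30), DKC1 (-0.27), NOP58 (-0.22), NCL (-0.21), NOP56 (-0.20), TAF1D (-0.20), EXOSC2 (-0.17) and GAR1 (-0.16) were the others, and EXOSC10 (-0.10) and POLR1A (0.10) were not called. GAR1 was lost without any 1 of the 6 libraries and EXOSC2 without any 1 of 4.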

How the data were processed

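RNA was extracted from biological triplicates of 18 conditions, poly(A) RNA was made into directional libraries and sequenced as paired reads. Per the labels and the study's methods, the authors trimmed reads with Trimmomatic 0.36 after FastQC 0.11.8 and quantified Ensembl GRCh38.p13 transcripts with kallisto 0.44.0. The deposited gene tables hold estimated counts (expected counts) and TPM, which the authors summed over the transcripts of each gene. The deposited transcript tables hold the same units. The members and lists were chosen with earlier results of these data known. Members, and the genes named, were all 45 genes by role, with values for those called at 2-fold or more, the largest called rise and fall of a role, and DKC1, EXOSC10 and POLR1A throughout.

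Estimated counts were rounded to whole numbers, filtered with edgeR's filterByExpr and scaled by TMM. Each line was fitted with its 6 groups in edgeR 4.0.16 (quasi-likelihood test, R 4.3.3, limma 3.58.1), with 12 residual degrees of freedom, and p-values were adjusted over 21814, 22975 and 23756 genes by the Benjamini-Hochberg method. Comparisons across lines used 54 libraries and 26043 genes. No replicate pair differed by less than the sampling noise (lowest chi-square per degree of freedom 2.24 of 54 pairs). TPM gave levels only. The code was tested on simulated data. Coordinates are of GRCh38 (GENCODE 44), and promoter windows are of RefSeq GRCh38.p14, which held no window for 7 genes. The authors' own test was DESeq2, used here (1.42.0) as an alternative.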

Additional observations from a re-analysis of the deposited data

Results flagged for a closer look

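The 5-FU response of the 45 genes differed between resistant and sensitive cells by the interaction term of edgeR's quasi-likelihood test (adjusted p at most 0.01) for 40 genes in the resistant-labelled HT-29 libraries against sensitive HT-29 cells, 24 genes in HCT-116 and 13 in DLD-1. In HT-29 the differences of at least 2-fold were 1.05 on the log2 scale for NOP16, 1.04 for NPM1, 1.10 for WDR12 and 1.03 for TAF1D, each with the larger fall in sensitive HT-29 cells. Resistance and line cannot be told apart there.

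The response of sensitive cells also differed between lines, in comparisons chosen after seeing the data. It differed for 42 genes between HT-29 and HCT-116, for 36 between HT-29 and DLD-1 and for 23 between HCT-116 and DLD-1. Differences of at least 2-fold, each lower in HT-29 than in HCT-116, were -1.40 for NOP16, -1.29 for RRS1, -1.22 for PNO1, -1.22 for RRP12, -1.20 for WDR12, -1.13 for NOP56, -1.03 for TAF1D and -1.02 for UTP20.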

How the results depend on the processing

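Most calls of single genes kept their direction and side of the threshold, with 360 of 365 unchanged under DESeq2 and 234 of 243 under DESeq2's size factors in edgeR. Thinning the deepest library left 33 of 33 unchanged, while library size alone left 334 of 365. Counts below are of the 45 genes, and the cause of each change was not tested.

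With at least 2-fold asked, 0 genes were left for the 5-FU response of sensitive DLD-1 and HCT-116 and of resistant DLD-1 cells, both other interactions, resistant against sensitive DLD-1 and HCT-116, irradiation of resistant cells in every line, and both HCT-116 contrasts of the resistant-labelled HT-29 libraries. It left 4 for the response and interaction of HT-29 and 5 for resistant against sensitive HT-29. At an adjusted p of 0.05 the counts were 3 (5-FU, resistant DLD-1), 7 (resistant against sensitive DLD-1), 5 and 1 (irradiation, resistant and sensitive HCT-116) and 18 (irradiation, resistant-labelled HT-29 libraries). DESeq2 gave 3 for 5-FU in resistant DLD-1 and 5 for irradiation in resistant HCT-116 cells. With no filter, resistant DLD-1 gave 5 (5-FU), 4 (irradiation) and 5 (against sensitive). Fits of the compared groups only gave 0 (5-FU, resistant DLD-1), 25 (5-FU, sensitive DLD-1), 0 (irradiation, resistant HCT-116) and 17 (irradiation, resistant-labelled HT-29 libraries). Library size alone gave 8 for the DLD-1 interaction and 32 for the resistant-labelled HT-29 libraries against sensitive HCT-116. In depth-scaled counts (CPM) the ratio of summed levels after 5-FU was 0.870, 0.955 and 0.625 (TPM 0.897, 0.901 and 0.670) for the lines in the order DLD-1, then HCT-116, then HT-29. CANNTG was in 71.1% of windows. The median coding share of the genes by estimated counts was 93.5% and 94.9% in HT-29, 94.8% and 95.9% in HCT-116 and 94.8% and 95.4% in DLD-1 (5-FU, then uracil).

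With a library left out, counts ran from 11 to 13 (DLD-1), 26 to 29 (HCT-116) and 39 to 42 (HT-29) for 5-FU in sensitive cells, 0 to 2, 0 to 0 and 0 to 0 for 5-FU in resistant cells, 10 to 21, 19 to 22 and 37 to 41 for the interaction, 2 to 18, 21 to 26 and 34 to 36 for resistant against sensitive, 0 to 0 for irradiation in all sensitive cells, and 0 to 1, 0 to 3 and 8 to 11 for irradiation in resistant cells. They ran from 13 to 16 against sensitive and 0 to 4 against resistant HCT-116, and for line differences from 40 to 43 (HT-29 and HCT-116), 34 to 39 (HT-29 and DLD-1) and 19 to 22 (HCT-116 and DLD-1). Ratios of sums ran from 0.889 to 0.903, 0.893 to 0.915 and 0.661 to 0.680. The 18 and 21 arose without DLD-1 resistant uracil replicate 1.

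Signs turned for DKC1 in resistant against sensitive DLD-1, where values with a library left out ran from -0.064 to 0.10 (0.10 without that library), for EXOSC10 in sensitive HT-29 (0.14) and, in the resistant-labelled HT-29 libraries against sensitive cells, NOP14 (0.10), POLR1A (0.076), TAF1D (0.14) and UTP20 (0.032) by library size alone, and for PWP2 in the DLD-1 interaction with its copy (0.39).

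Replicate numbers are shared across groups but did not pair the samples, with median correlations of -0.001, 0.008 and 0.008 between same-numbered libraries and 0, 2 and 0 of 45 pairs over 0.1. With a replicate block the counts were 15, 30 and 42 for 5-FU in sensitive cells, 0 for resistant DLD-1, and 13, 25 and 40 for the interaction, and 362 of 365 calls of single genes were unchanged.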
